A study of Mus musculus with 4 samples.

Results

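Microglia that carried much Cdkn1a RNA 1 week after irradiation were set against microglia of the same library in which none was counted. Cdkn1a encodes p21, an inhibitor of cyclin-dependent kinases and a target of the transcription factor p53. In the irradiated library at 1 week, 2035 of 2170 barcodes held at least 2000 UMIs and 500 genes, at most 10% mitochondrial UMIs and at least 1 UMI of the microglia gene Tmem119. UMIs are tags that let each captured transcript molecule be counted a single time. Of these 2035 cells, 641 (31.5%) had 10 or more raw Cdkn1a UMIs and are called Cdkn1a-rich, and 170 (8.35%) had 0 and are called Cdkn1a-lacking. Together they make 811 of the 7793 cells that passed the same filters in the whole series.

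The irradiated group came from C57BL/6 mice given 8 Gy to the whole brain in 1 dose at postnatal day 21, with microglia collected 1 week later. The labels name the brain as their source and the design text speaks of the hippocampus, so the region is not settled here. The sham group was collected at the same time from mice of the same strain and age that received no dose. Droplet libraries (10x Genomics Chromium) were also made 6 h after irradiation or sham handling. Each group was a single library pooled from 4 mice, so mice and groups cannot be separated. No difference below has a replicate check, no test was possible, and every interval covers counting error only. The labels give no sex; Xist, expressed from the inactive X chromosome, stood at 2518 CPM in Cdkn1a-rich, 2768 CPM in Cdkn1a-lacking and 2108 CPM in sham cells, and Y-linked genes were nearly absent.

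Ionizing radiation breaks DNA, and the break-sensing kinases stabilize p53. p53 then switches on genes that halt the cell cycle (Cdkn1a), promote cell death (Bax, Bbc3), feed back on p53 itself (Mdm2, Ccng1) or restrain growth signalling (Phlda3, Sesn2). Microglia are the resident macrophages of the brain. At rest they express a homeostatic set of genes such as P2ry12, Tmem119 and Cx3cr1, and they can divide when the population has to be replaced.

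The cells were selected on their measured raw Cdkn1a UMIs, so the Cdkn1a counts are given as a description only. Counts ran from 0 to 75 UMIs per cell in the irradiated library, with some cells at every value up to 38 and a median of 6, and Cdkn1a-rich cells had a median of 14. On either side of the limits, 85 cells had 9 UMIs and 90 had 10, while 170 had 0 and 153 had 1. In the sham library 1232 of 1377 filtered cells (89.5%) had 0 Cdkn1a UMIs, 145 had 1 or more, and the highest count was 14. The irradiated library thus had no gap at the limits of 0 and 10. A count of 0 is not proof that a cell made no Cdkn1a RNA, and at 1 UMI free RNA in the droplet can be the source.

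**Figure D1:**
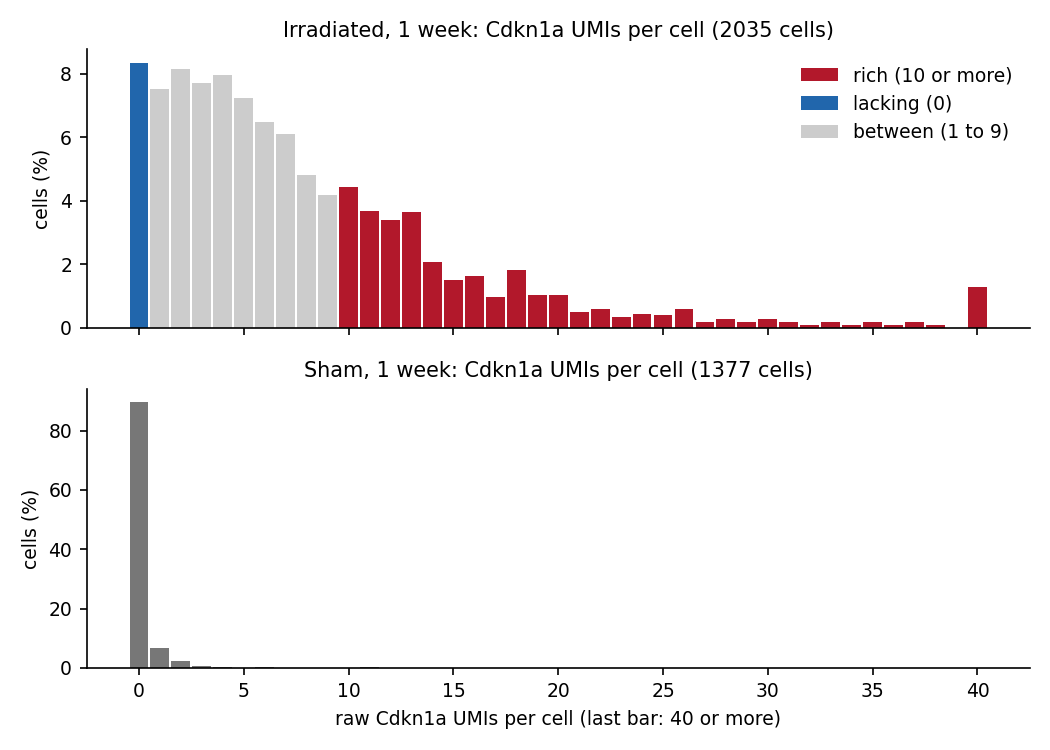
Raw Cdkn1a UMIs per cell (x axis) and the percentage of cells (y axis) in the irradiated library (top, 2035 cells) and the sham library (bottom, 1377 cells) at 1 week. The irradiated cells form 1 broad distribution in which the Cdkn1a-lacking cells (blue) are 8.35% and the Cdkn1a-rich cells (red) 31.5%, whereas 89.5% of sham cells sit at 0.

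Depth was nearly equal in the classes before any matching. The median cell had 3673 UMIs and 1601 genes in the Cdkn1a-rich class, 3628 UMIs and 1630.5 genes in the Cdkn1a-lacking class and 3738.5 UMIs and 1621 genes among sham cells without Cdkn1a. All cells were then thinned at random to 2000 UMIs, and the thinned UMIs of a class were summed and expressed as CPM, a level scaled to the class total with Cdkn1a left out. The 9 microglia markers summed to 48339 CPM in Cdkn1a-rich, 51138 CPM in Cdkn1a-lacking and 48763 CPM in sham cells. The filters had already required the microglia gene Tmem119 in every cell. These sums therefore do not test microglial identity apart from that choice. Markers of other cell types were low throughout. Astrocyte markers stood at 218 CPM in Cdkn1a-rich, 118 CPM in Cdkn1a-lacking and 150 CPM in sham cells, border macrophage markers at 28.2, 14.7 and 16.2 CPM in the same order, and monocyte markers at 7.05, 5.88 and 6.49 CPM. Erythroid and oligodendrocyte precursor markers were at 0 in all classes. Between 4 and 12 barcodes were shared by any pair of libraries.

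The promoter of Cdkn1a itself shows the kind of element that p53 recognizes. The RefSeq window (build GRCm38.p6) from 250 bases before to 50 bases after the first annotated start is chr17:29090729-29091028 on the plus strand. The window of the second annotated start, chr17:29093519-29093818, holds no decamer. That of the first start holds a pair of p53 decamers, in capitals with the spacer between them, which begins 73 bases before that start.
Cdkn1a: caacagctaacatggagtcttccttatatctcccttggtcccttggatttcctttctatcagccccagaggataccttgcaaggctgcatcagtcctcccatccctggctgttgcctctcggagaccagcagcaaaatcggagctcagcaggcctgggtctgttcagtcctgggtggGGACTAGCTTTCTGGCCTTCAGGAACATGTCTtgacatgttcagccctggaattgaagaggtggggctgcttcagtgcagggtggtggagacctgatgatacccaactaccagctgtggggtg
Each decamer is the 10-base consensus unit of the p53 response element, searched on both strands with a spacer of at most 13 bases. A decamer stood in 8.36% of 32851 RefSeq promoter windows and a pair in 24 of them (0.0731%). Counted per gene, 9.55% of 27025 genes had a decamer in any window. Of the 14 p53 targets described below as higher in Cdkn1a-rich cells, 5 (Mdm2, Ccng1, Bax, Aen and Rps27l) had one, and none had a pair. Both genes outside the list that differed most, D630023F18Rik and Fam212b (named Inka2 in RefSeq), also had one. The 40-base stretches around it, with the decamer in capitals, are given on the gene's strand for those with it upstream of a start (the second annotated start for Rps27l and Fam212b). That of Aen, which also lies 10 bases past the first annotated start, is left out.
Bax, chr7:45467075-45467114, minus strand: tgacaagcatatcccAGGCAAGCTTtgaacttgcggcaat
Mdm2, chr10:117710920-117710959, minus strand: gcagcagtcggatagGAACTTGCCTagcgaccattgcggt
Ccng1, chr11:40755447-40755486, minus strand: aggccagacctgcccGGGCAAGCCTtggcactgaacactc
Rps27l, chr9:66946188-66946227, plus strand: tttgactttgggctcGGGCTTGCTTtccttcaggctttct
D630023F18Rik, chr1:65123309-65123348, minus strand: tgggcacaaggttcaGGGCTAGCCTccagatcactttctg
Fam212b, chr3:105705362-105705401, plus strand: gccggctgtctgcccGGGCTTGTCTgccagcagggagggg
A match in letters is a description and does not show that p53 binds there, and a window without one, as for Phlda3, says nothing of sites elsewhere in the gene.

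Other p53 targets were higher in Cdkn1a-rich than in Cdkn1a-lacking cells, and none was lower. Of 56 listed targets other than Cdkn1a, 23 reached 50 thinned UMIs over both classes, and 14 of these were at least 1.5-fold higher with an interval above 0. Across all 4335 genes measured, 129 (2.98%) were higher and 70 (1.61%) lower by the same rule. Because the Cdkn1a-rich class is the larger, a gene reaches 50 UMIs mainly through it, so the count of 14 describes the measured members only. The median log2 fold was 1.19 over the 23 targets and 0.01 over all measured genes.

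Phlda3, which encodes a repressor of AKT signalling, came closest to an all-or-none difference. Its transcripts numbered 248 thinned UMIs (194 CPM) in the 641 Cdkn1a-rich cells, 2 UMIs (5.88 CPM) in the 170 Cdkn1a-lacking cells and none in the 1232 sham cells. It was seen in 31.0% of Cdkn1a-rich cells (exact interval 27.5 to 34.8%), in 0.588% of Cdkn1a-lacking cells (0.0149 to 3.23%) and in 0% of sham cells (up to 0.299%). The log2 fold of Cdkn1a-rich over Cdkn1a-lacking cells was 5.05 (95% interval 3.18 to 8.10). Cdkn1a-lacking cells of the irradiated brain were thus close to sham cells in this gene, and Cdkn1a-rich cells stood at least 159.6-fold above sham cells when 3 counts were put in place of 0.

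Regulators of p53 followed. Mdm2, the ubiquitin ligase that degrades p53, stood at 145.8 CPM in Cdkn1a-rich, 67.6 CPM in Cdkn1a-lacking and 44.6 CPM in sham cells (log2 fold rich over lacking 1.11, interval 0.48 to 1.80). Ccng1, cyclin G1, which recruits a phosphatase to Mdm2, stood at 117.5 CPM, 44.1 CPM and 12.6 CPM in the same classes (1.41, 0.65 to 2.29). In both genes Cdkn1a-lacking cells lay between the other classes. Trp53, the gene of p53 itself, had 36.0 CPM in Cdkn1a-rich, 29.4 CPM in Cdkn1a-lacking and 40.2 CPM in sham cells, with an interval of the fold that spanned 0. Of 6 measured genes of the list of p53 pathway regulators, only Mdm4, an inhibitor of p53, passed 1.5-fold (1.07, 0.12 to 2.19).

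The death-promoting targets were also graded. Bax, which opens the outer mitochondrial membrane, stood at 563 CPM in Cdkn1a-rich, 235 CPM in Cdkn1a-lacking and 133 CPM in sham cells, with UMIs in 67.2%, 36.5% and 23.5% of the cells (log2 fold rich over lacking 1.26, 0.92 to 1.61). Bbc3, which encodes the BH3-only protein PUMA, stood at 177 CPM, 64.7 CPM and 27.6 CPM in the same order (1.45, 0.82 to 2.16). Aen, an exonuclease induced in apoptosis, had 90.9 CPM in Cdkn1a-rich, 26.5 CPM in Cdkn1a-lacking and 15.4 CPM in sham cells (1.78). These targets thus stood higher in Cdkn1a-rich cells, but were not missing from Cdkn1a-lacking cells. Among 14 measured genes of the broader cell death list, which does not follow p53 alone, 1 was higher (Bcl2l11, which encodes BIM, 1.14) and 1 lower (Diablo, an antagonist of caspase inhibitors, -0.74), near the shares over all genes.

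The other called targets cover stress, metabolism and repair. Sesn2, a stress-induced inhibitor of mTORC1, had 57.2 CPM in Cdkn1a-rich, 14.7 CPM in Cdkn1a-lacking and 10.96 CPM in sham cells (1.96). Ddit4, another brake on mTORC1, had 144 CPM, 61.8 CPM and 34.5 CPM (1.22). Ak1, an adenylate kinase, had 195 CPM, 85.3 CPM and 46.7 CPM (1.19). In these genes too the order was Cdkn1a-rich, Cdkn1a-lacking, sham. Dcxr, a sugar reductase, had 199.8 CPM in Cdkn1a-rich, 61.8 CPM in Cdkn1a-lacking and 68.2 CPM in sham cells (1.69). Rps27l, a ribosomal protein paralog, had 442 CPM, 179 CPM and 153 CPM (1.30), although reads of such close paralogs may be shared in counting. For Dcxr and Rps27l the Cdkn1a-lacking cells stood near the sham level. Epha2, a receptor tyrosine kinase, and Mgmt, which removes alkyl groups from guanine, were rarer transcripts with 83 and 72 UMIs in Cdkn1a-rich cells and 6 UMIs each in Cdkn1a-lacking cells (1.88 and 1.68). Btg2, an antiproliferative gene that is also an immediate early gene, had 2548 CPM in Cdkn1a-rich, 1518 CPM in Cdkn1a-lacking and 1728 CPM in sham cells (0.75, 0.61 to 0.88). It stood at 2031 CPM in cells with 10 to 19 Cdkn1a UMIs and at 4263 CPM in those with 20 or more. The Btg2 call did not hold with Cdkn1a-rich cells from 5 UMIs or of 10 to 19 UMIs.

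The 9 measured targets that did not pass the rule had log2 folds between -0.16 for Sesn1 and 0.78 for Abhd4, with intervals that spanned 0. Of the 33 targets under 50 UMIs, Gdf15, a secreted stress cytokine, had 26 UMIs in Cdkn1a-rich, 2 UMIs in Cdkn1a-lacking and 7 UMIs in sham cells, too few to place. When the pairs of cells were matched on total UMIs, 10 of 12 measured targets were higher and none lower, against 3.29% higher and 1.72% lower of 2099 genes. All 14 calls also held with another random draw of the UMIs and with all UMIs kept. Of the 14, 10 held in the matched pairs and 10 with Cdkn1a-rich cells from 20 UMIs. With cells of 2 or more S or G2/M UMIs left out, 4 held. That setting kept 204 Cdkn1a-rich and 44 Cdkn1a-lacking cells, and 9 targets were measured there.

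**Figure D2:**
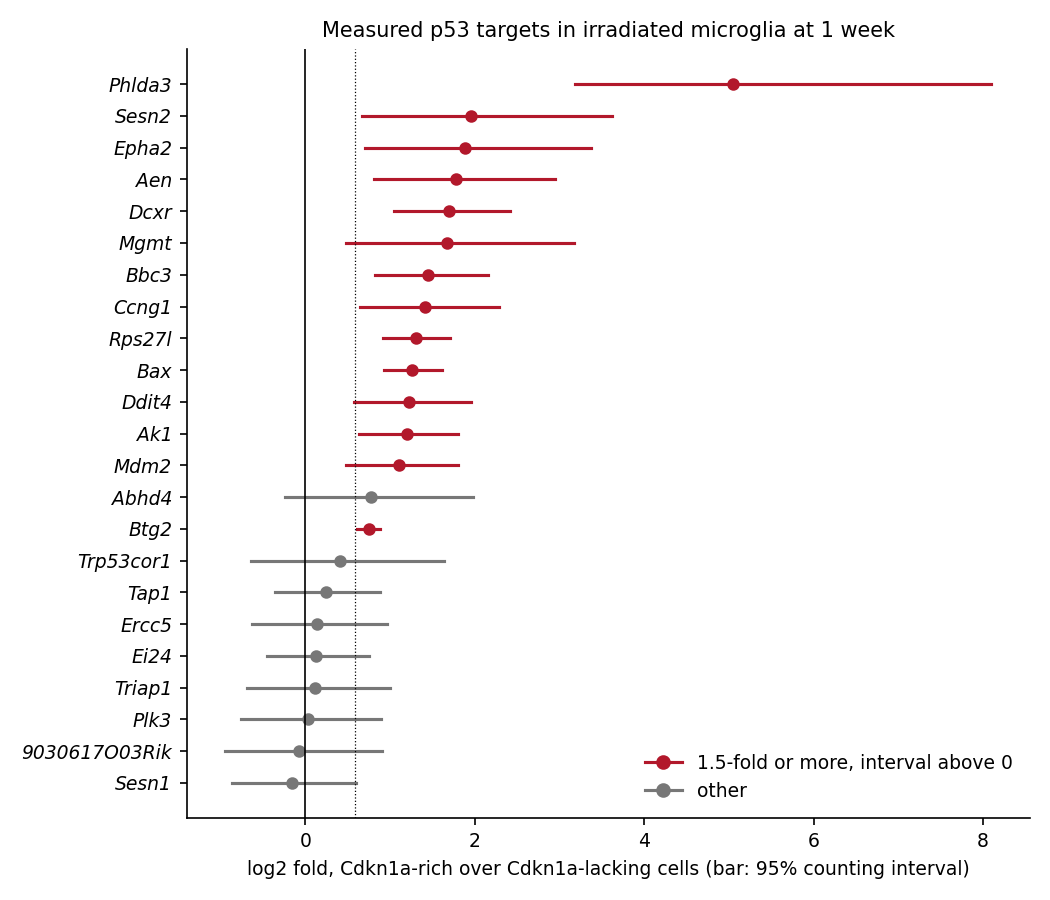
Log2 fold of Cdkn1a-rich over Cdkn1a-lacking cells for the 23 measured p53 targets (points) with 95% counting intervals (bars); the dotted line marks 1.5-fold. The 14 genes in red passed the rule, from Btg2 at 0.75 to Phlda3 at 5.05, and no gene passed it below 0.

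Per cell, the shift was a shift of the whole class and not of a few cells. Summed over all p53 targets except Cdkn1a and Btg2, the median was 6 of 2000 thinned UMIs in Cdkn1a-rich cells (quartiles 4 and 9), 3 UMIs in Cdkn1a-lacking cells (2 and 4) and 2 UMIs in sham cells (1 and 3). More than 5 such UMIs, the 95th percentile of sham cells, were found in 63.0% of Cdkn1a-rich cells (interval 59.2 to 66.8%), 10.6% of Cdkn1a-lacking cells (6.40 to 16.2%) and 3.65% of sham cells (2.68 to 4.86%). Most Cdkn1a-lacking cells therefore fell in the range of sham cells, and their distribution overlapped that of the Cdkn1a-rich cells.

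**Figure D3:**
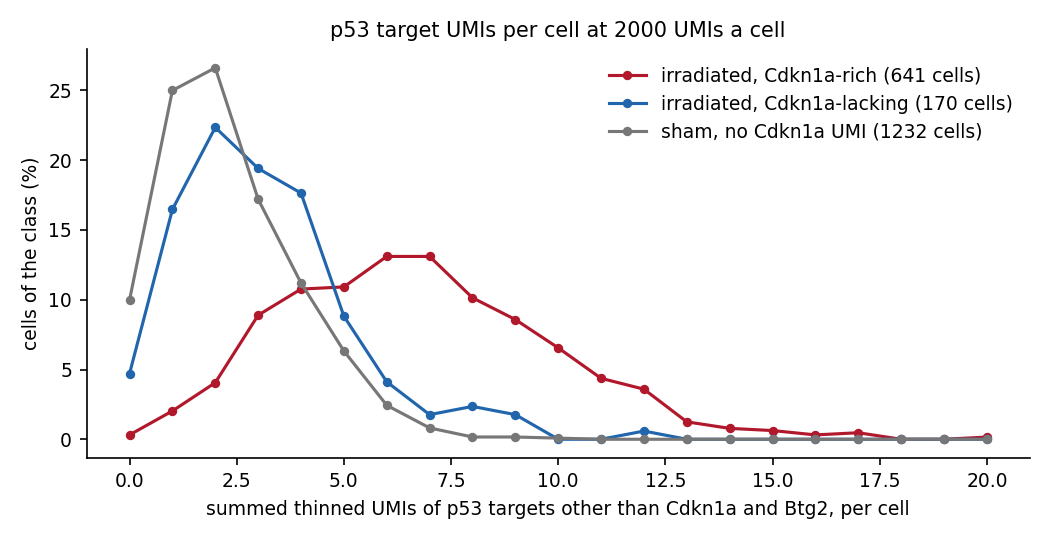
Summed thinned UMIs per cell of the p53 targets other than Cdkn1a and Btg2 (x axis) and percentage of the cells of each class (y axis). The Cdkn1a-rich curve (red, 641 cells, median 6) lies to the right of the Cdkn1a-lacking curve (blue, 170 cells, median 3), which lies close to the sham curve (grey, 1232 cells, median 2).

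Cdkn1a-lacking cells were still distinguishable from sham cells in part of the p53 list. Of 21 targets measured over these classes, 6 were higher in Cdkn1a-lacking than in sham cells and none was lower, against 2.66% higher and 2.7% lower of 5970 genes. The 6 were Bbc3 (log2 fold lacking over sham 1.23), Ak1 (0.87), Ddit4 (0.84), Bax (0.83), Ei24 (0.81) and Tap1 (0.98). Ei24 encodes a membrane protein linked to autophagy and Tap1 a transporter that supplies peptides to MHC class I. Ei24 and Tap1 reached similar levels in both irradiated classes: Ei24 had 96.4 CPM in Cdkn1a-rich, 88.2 CPM in Cdkn1a-lacking and 50.3 CPM in sham cells, and Tap1 had 97.2 CPM, 82.4 CPM and 41.8 CPM. Cdkn1a-rich cells differed from sham cells in more of the list, with 20 of 32 measured targets higher and 1 lower, against 3.26% higher and 2.95% lower of 6748 genes. Both comparisons share the sham cells.

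Over increasing steps of Cdkn1a (0, 1 to 4, 5 to 9, 10 to 19, and 20 or more UMIs) most p53 targets stood higher by degrees. Phlda3 stood at 5.88, 76.1, 119.7, 184 and 229.9 CPM at these steps. Bax stood at 235, 349.8, 487, 570.2 and 541 CPM, and Mdm2 at 67.6, 76.1, 108, 137 and 176 CPM. The first step and the last 2 steps chose the 14 called targets, so a higher level at the end than at 0 says nothing more. The cells between them did not enter that choice, and all 14 were higher at 5 to 9 than at 1 to 4 UMIs, with a median log2 fold of 0.44. Among all p53 targets measured over these cells 26 of 28 were higher, with a median of 0.37, against 2835 of 5611 genes and a median of 0.00 over all. The median ratio of the 14 at 20 or more UMIs over 10 to 19 was 1.10. Even the 153 cells with a single Cdkn1a UMI had 39.2 CPM of Phlda3, against 5.88 CPM in the cells with 0.

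The genes outside the fixed lists that differed most included a pair that behaved like Phlda3. D630023F18Rik, a protein-coding gene with no role given here, had 111 UMIs (87.0 CPM) in Cdkn1a-rich cells, 1 UMI (2.94 CPM) in Cdkn1a-lacking cells and none in sham cells (log2 fold rich over lacking 4.89, 2.38 to 10.20). Fam212b, whose product Inka2 inhibits the kinase PAK4, had 97 UMIs (76.0 CPM), 1 UMI (2.94 CPM) and 1 UMI (0.406 CPM) in the same classes (4.69, 2.18 to 10.01). Both were therefore nearly confined, in these 3 classes, to irradiated cells that also held Cdkn1a. At the steps of Cdkn1a, D630023F18Rik stood at 2.94, 42.4, 71.0, 91.8 and 71.0 CPM and Fam212b at 2.94, 25.9, 48.7, 74.5 and 81.1 CPM.

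The next genes in that ranking, Rabgap1 (2.68), Araf (2.05), Ehbp1l1 (1.79), Gm26522 (1.77), Mtg2 (1.65), Ranbp3 (1.63), Thyn1 (1.58), Gna12 (1.55), Gm26532 (1.53) and Def6 (1.53), had another profile. Rabgap1, a GTPase activator, had 37.6 CPM in Cdkn1a-rich, 5.88 CPM in Cdkn1a-lacking and 30.8 CPM in sham cells, and Araf, a RAF kinase, 48.6, 11.8 and 44.6 CPM. In these it was the Cdkn1a-lacking class that stood apart, with 2 to 6 UMIs for each of the 10 genes, and Cdkn1a-rich cells were near or moderately above sham cells, or below them for Gna12. These calls depended on the draw: 4 of the 10 held with another random draw of the UMIs, and 6 with all UMIs kept, where Araf was at 0.66, Mtg2 at 0.65, Ranbp3 at 0.66 and Gna12 at 0.48 with intervals that spanned 0. The 12 lowest genes were Bend6 (-1.32), Eml4 (-1.21), Mrps5 (-1.19), Itgb3 (-1.19), Cdkal1 (-1.16), Ccr1 (-1.09), Cfap97 (-1.03), Mif4gd (-1.03), Rps26-ps1 (-1.03), Asf1a (-1.02), Qrich1 (-0.99) and Urod (-0.98). Of these, 11 rested on 19 to 37 UMIs in Cdkn1a-lacking cells, and Ccr1, a chemokine receptor, on 56. Of these 12, only 2 calls (Cfap97 and Ccr1) held with another random draw and 7 with all UMIs kept, where Asf1a, Itgb3, Mif4gd, Qrich1 and Rps26-ps1 no longer passed. For each of these genes, the 10 and the 12, the interval came within 0.75 of 0. D630023F18Rik and Fam212b passed in both settings.

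Cell cycle genes were summed by phase. Over the 41 S phase genes, Cdkn1a-rich cells had 581 CPM, Cdkn1a-lacking cells 900 CPM and sham cells 472 CPM, a log2 fold of rich over lacking of -0.63 (-0.83 to -0.44). The 51 G2/M genes summed to 1215 CPM in Cdkn1a-rich, 1144 CPM in Cdkn1a-lacking and 753 CPM in sham cells (0.09, -0.07 to 0.25). Among irradiated cells the S phase sum was thus higher in those without Cdkn1a, and this direction held in every alternative that kept cells with 2 or more S or G2/M UMIs (-0.82 to -0.42). The G2/M sum exceeded sham in both irradiated classes, but the order of these depended on the processing. With all UMIs kept it was 1673 CPM in Cdkn1a-rich and 1170 CPM in Cdkn1a-lacking cells (0.52, 0.40 to 0.63), and in pairs matched on total UMIs 969 and 1144 CPM (-0.24, -0.46 to -0.02). Within the Cdkn1a-rich class it was 1541 CPM at 20 or more and 1117 CPM at 10 to 19 Cdkn1a UMIs (0.46, 0.30 to 0.62).

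Only 4 S phase genes reached 50 UMIs, and 2 of them were lower in Cdkn1a-rich cells. Mcm3, a subunit of the replicative helicase, had 33.7 CPM in Cdkn1a-rich, 79.4 CPM in Cdkn1a-lacking and 33.7 CPM in sham cells (-1.24, -1.96 to -0.49). Rfc2, a subunit of the clamp loader, had 56.4 CPM, 100 CPM and 53.6 CPM (-0.83, -1.43 to -0.19). In both, Cdkn1a-rich cells were at the sham level. Neither call held with another random draw of the UMIs, where Mcm3 differed by -0.35 (-1.15 to 0.51) and Rfc2 by -0.46 (-1.13 to 0.25), while both held with all UMIs kept (-0.87 and -0.69). Pcna, the sliding clamp, was level at 69.0 CPM in Cdkn1a-rich, 67.6 CPM in Cdkn1a-lacking and 66.2 CPM in sham cells. Cdk4, the G1 kinase that phosphorylates the retinoblastoma protein, had 78.4 CPM in Cdkn1a-rich, 141 CPM in Cdkn1a-lacking and 75.9 CPM in sham cells (-0.85, -1.36 to -0.32), and was the only 1 of 6 measured G1 genes past 1.5-fold. Ccnd1, cyclin D1, instead had 248 CPM in Cdkn1a-rich, 197 CPM in Cdkn1a-lacking and 97.4 CPM in sham cells. Of 7 measured G2/M genes none passed 1.5-fold, but with all UMIs kept 13 of 21 were higher in Cdkn1a-rich cells and none lower, against 3.13% higher of 6365 genes, with Top2a at 1.22 (0.51 to 2.01). Top2a, the topoisomerase of mitosis, had 45 UMIs (35.3 CPM) in Cdkn1a-rich, 10 UMIs (29.4 CPM) in Cdkn1a-lacking and 4 UMIs (1.62 CPM) in sham cells. Mki67, the proliferation marker, had 16 UMIs, 1 UMI and 1 UMI in the same classes.

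Cells with many such UMIs were counted to see how the sums arose, with limits chosen after the data had been seen. At 5 or more S or G2/M UMIs of 2000 the share was 11.1% of Cdkn1a-rich cells (8.75 to 13.8%), 29.4% of Cdkn1a-lacking cells (22.7 to 36.9%) and 10.2% of sham cells (8.59 to 12.1%). At 10 or more it was 2.81% (18 cells), 8.24% (14 cells) and 0.162% (2 cells). At 20 or more it was 2.34% of Cdkn1a-rich cells (1.32 to 3.83%) and 2.35% of Cdkn1a-lacking cells (0.64 to 5.91%), with none among 1232 sham cells (up to 0.299%). The excess of Cdkn1a-lacking cells thus lay at 5 to 14 UMIs, and the intervals of the shares at 20 or more overlapped widely. With another random draw the shares at 5 or more were 10.8% of Cdkn1a-rich and 22.4% of Cdkn1a-lacking cells. In the same order they were 2.65% and 6.47% at 10 or more, and 2.34% and 1.76% at 20 or more.

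The cells at 10 or more in the reported draw also differed in kind. Which cells reached 10 depended in part on the draw, and the 14 Cdkn1a-lacking cells had a median of 12 such UMIs. In 14 of the 18 Cdkn1a-rich cells G2/M UMIs outnumbered S phase UMIs, with medians of 38 and 10. In 10 of the 14 Cdkn1a-lacking cells S phase UMIs outnumbered G2/M UMIs, with medians of 7 and 5. These 18 cells held all 16 Mki67 UMIs and 44 of the 45 Top2a UMIs of the Cdkn1a-rich class, and had a median of 6287.5 raw UMIs, against 4678.5 in the 14 Cdkn1a-lacking cells. Of the 18, 4 exceeded 8000 UMIs, where 2 cells in 1 droplet are more likely. Doublets were not called, and their part was not tested. With all cells of 15 or more S or G2/M UMIs left out, the S phase sum was 464 CPM in Cdkn1a-rich and 774 CPM in Cdkn1a-lacking cells (-0.74, -0.95 to -0.52) and the G2/M sum 720 and 958 CPM (-0.41, -0.60 to -0.22). Among those cells Stmn1, a microtubule regulator of dividing cells chosen after its values were seen, had 47.4 CPM in Cdkn1a-rich and 105 CPM in Cdkn1a-lacking cells. The limit of 15 left out 16 Cdkn1a-rich and 4 Cdkn1a-lacking cells. With cells of 10 or more left out, the difference in the S phase sum was smaller, at -0.46 (-0.70 to -0.21). Its direction thus stayed the same at both limits. Both limits left out cells by the same UMIs that were then compared, so the sizes cannot be set against that in all cells.

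**Figure D4:**
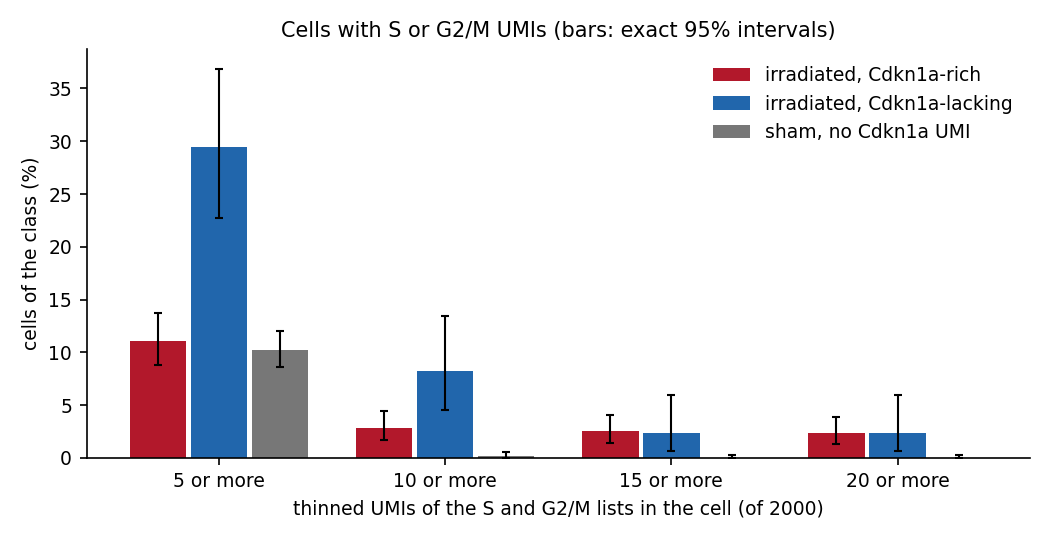
Percentage of cells (y axis) with at least 5, 10, 15 or 20 thinned UMIs of the S and G2/M lists (x axis) in Cdkn1a-rich (red), Cdkn1a-lacking (blue) and sham cells without Cdkn1a (grey), with exact 95% intervals. At 5 or more the share is 11.1% of Cdkn1a-rich and 29.4% of Cdkn1a-lacking cells, and at 20 or more the intervals overlap (2.34% and 2.35%).

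Homeostatic genes hardly differed. All 49 were measured, and 1 was higher (Gas6, a ligand of the TAM receptors, 0.59) and 1 lower (Ramp1, a receptor-activity-modifying protein, -0.88) in Cdkn1a-rich cells, with a median log2 fold of -0.06. Neither call held with another random draw of the UMIs, and that of Gas6 did not hold with all UMIs kept. P2ry12, a purine receptor, had 6741 CPM in Cdkn1a-rich, 7556 CPM in Cdkn1a-lacking and 5793 CPM in sham cells (-0.16, -0.23 to -0.10). Tmem119 had 3069, 3335 and 2784 CPM (-0.12) and Cx3cr1, the fractalkine receptor, 3304, 3276 and 3143 CPM (0.01). Csf1r, the receptor on which microglia depend, had 2732 CPM in Cdkn1a-rich, 2953 CPM in Cdkn1a-lacking and 3856 CPM in sham cells, so that it was lower in both irradiated classes. Cst3, the most abundant of them, had 40272 CPM in Cdkn1a-rich, 49985 CPM in Cdkn1a-lacking and 63553 CPM in sham cells (-0.31, -0.34 to -0.29), a difference under the 1.5-fold limit. Summed, the homeostatic list was lower at each step of Cdkn1a, with 150962, 146751, 142667, 139032 and 124915 CPM over the 5 steps. Cst3 made up much of this: without it the sums were 100976, 100847, 99491, 97817 and 87769 CPM, nearly level up to 9 UMIs. Lysosomal genes (36 measured), ribosomal and translation genes (37), MHC class I (14) and DNA repair genes (7) had none past 1.5-fold, and of 31 respiratory chain genes only Ndufa1 passed (-0.75). Of 19 disease-associated microglia genes Lyz2, lysozyme, was higher (1.10) and the chemokine Ccl6 lower (-0.85), and of 19 interferon response genes Xaf1 was higher (1.01), a call that held neither with another draw nor with all UMIs kept. Of 8 measured senescence and secreted factors 1 was higher (Ccl2, also in the inflammatory list below) and none lower, and none of 3 MHC class II genes passed.

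Inflammatory and immediate early genes were also higher in Cdkn1a-rich cells, but along a different course. Of 24 measured cytokine and NF-kB genes 9 were higher and 1 (Ccl9) lower, with a median log2 fold of 0.53. Of 28 dissociation and immediate early genes 11 were higher and 1 (Klf4) lower, with a median of 0.40. Over all 4335 genes measured, 2.98% were higher and 1.61% lower, with a median of 0.01. Most of the higher inflammatory and immediate early calls rested on the 149 cells with 20 or more Cdkn1a UMIs, as described below. Ccl2, a monocyte chemoattractant, had 359.7 CPM in Cdkn1a-rich, 112 CPM in Cdkn1a-lacking and 67.4 CPM in sham cells (1.69, 1.21 to 2.20). Ccl12, a related chemokine, had 823, 441 and 208 CPM (0.90). For both the order was that of the p53 targets. Ccl3, by contrast, had 602 CPM in Cdkn1a-rich, 206 CPM in Cdkn1a-lacking and 610 CPM in sham cells (1.55), and Fos, a subunit of AP-1, had 1993, 976 and 1345 CPM (1.03, 0.86 to 1.20). In these it was the Cdkn1a-lacking cells that lay below sham cells. Against sham cells, Cdkn1a-lacking cells had 7 of 29 immediate early genes lower and none higher, against 2.7% lower and 2.66% higher of 5970 genes.

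Over the steps of Cdkn1a several of these genes were nearly level up to 9 UMIs and high in the last step. Fos stood at 976, 979.6, 988, 1342 and 4151 CPM, Ccl2 at 112, 122, 121, 198 and 896 CPM, and Nfkbia, the NF-kB inhibitor, at 276, 226, 254, 327 and 1224 CPM. Others differed: Ccl3 was higher from 5 UMIs on, with 206, 275, 459.99, 476 and 1017 CPM, and Atf3 stood at 67.6, 47.1, 29.9, 67.3 and 453 CPM. Klf4 and Ccl9 were lower at 20 or more than at 0. At 5 to 9 over 1 to 4 UMIs, 11 of 25 measured inflammatory genes (median -0.02) and 19 of 28 immediate early genes (median 0.03) were higher. Between 10 to 19 and 20 or more UMIs all 12 called immediate early genes (Klf4 included) were at least 1.5 times higher. So were 9 of 10 called inflammatory genes (Ccl9 excepted), against 2 of the 14 p53 targets (Btg2 and Sesn2). The cells at 20 or more had a part in choosing these called genes, so these counts describe them only. In a setting added after the data had been seen, Cdkn1a-rich cells were limited to 10 to 19 UMIs. There 2 of the 9 higher inflammatory calls held, and 1 (Ier3) of 10 higher immediate early calls checked. Of the 14 p53 calls 13 held. The 149 cells with 20 or more were also compared with the 492 at 10 to 19. In that comparison 12 of 22 measured inflammatory and 18 of 25 measured immediate early genes were higher, against 2.76% of 3691 genes. Of 22 measured p53 targets 1 was higher and 1 lower, against 2.44% of all genes lower.

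The 149 cells were deeper, with a median of 4140 raw UMIs against 3545.5 at 10 to 19, and they held these transcripts unevenly. The 5% of Cdkn1a-rich cells with the most UMIs of a gene held 71.5% of the Ccl2 UMIs and 78.5% of those of Atf3, a stress-induced transcription factor, but 16.3% of those of Bax. The median number of immediate early UMIs per cell was 59 at 20 or more Cdkn1a UMIs, 32 at 10 to 19, 31 at 5 to 9, 29 at 1 to 4 and 30 at 0, against 35 in sham cells. Immediate early genes also respond to cell dissociation, and whether dissociation had a part was not tested. When each Cdkn1a-lacking cell was paired with the Cdkn1a-rich cell nearest in immediate early UMIs, a comparison added after the data had been seen, Ccl2 differed by 0.46 (-0.17 to 1.10), Ccl4 by -0.05, Tnf by -0.09 and Fos, on which the pairs were in part chosen, by 0.10. Of the 9 higher inflammatory calls only that of Ccl3 held in these pairs, and of 10 immediate early calls checked only that of Ier3. In the same pairs Phlda3 differed by 5.07 and Bax by 1.43, and 8 of 11 measured p53 targets were higher, against 2.68% of 2123 genes. Of the 14 called p53 targets 8 were also called in these pairs, which hold fewer cells. Ccng1, Sesn2, Btg2, Aen, Epha2 and Mgmt were not. Whether immediate early activity had a part in any of these differences was not tested.

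**Figure D5:**
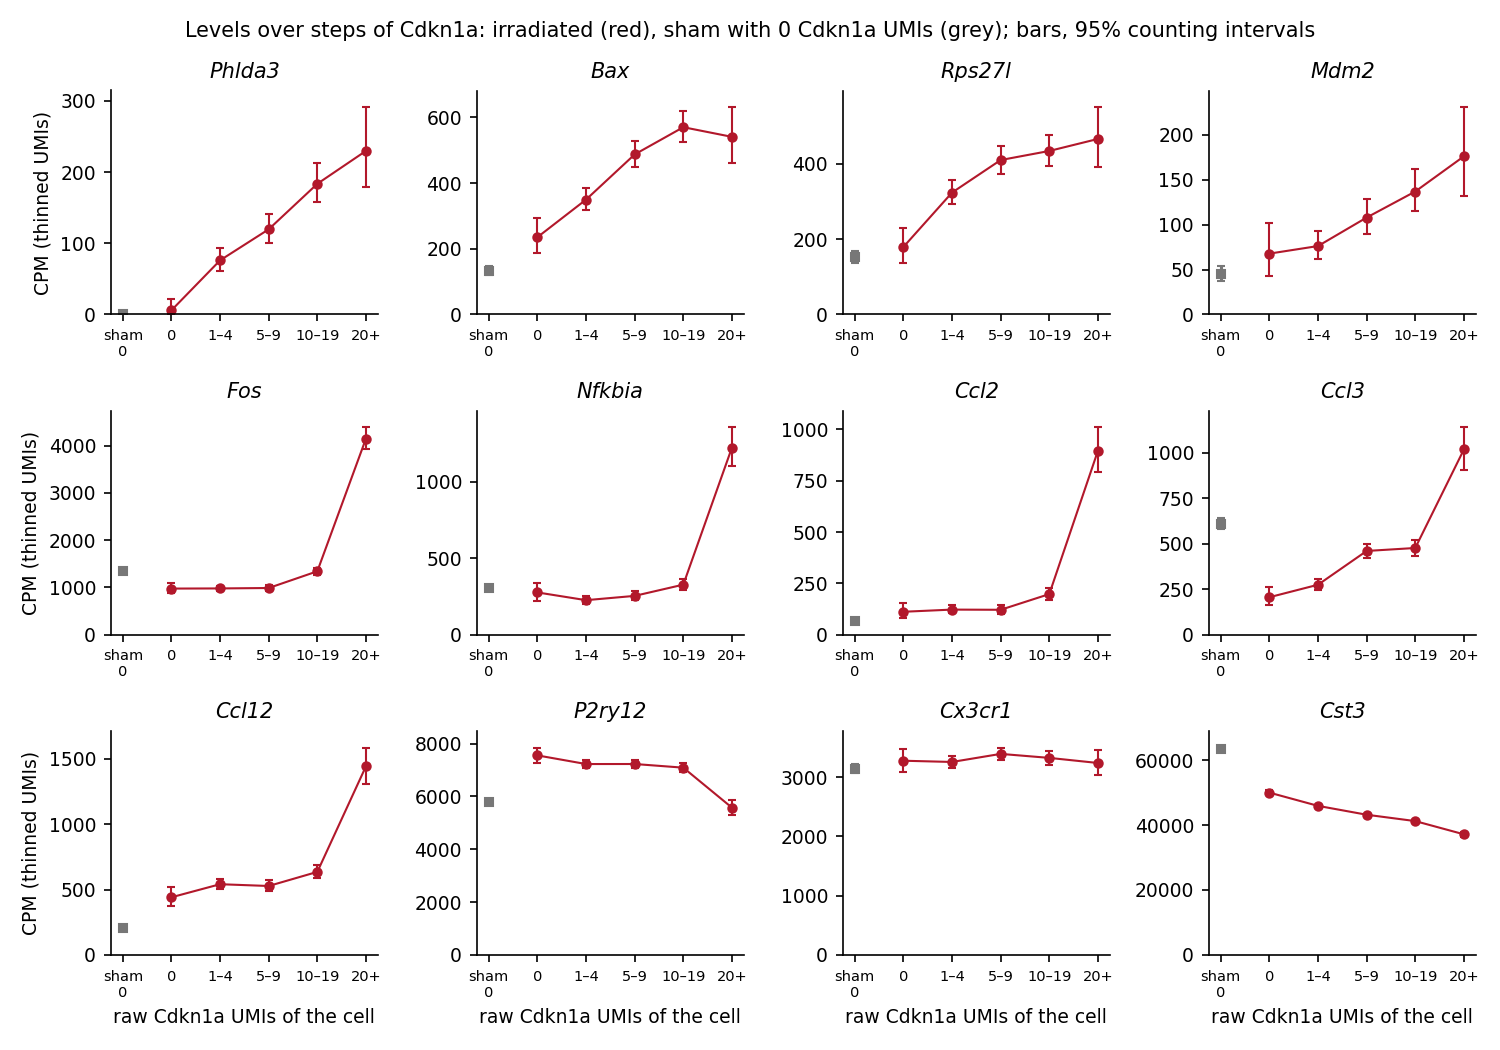
CPM of 12 genes (y axes, thinned UMIs, starting at 0) in sham cells with 0 Cdkn1a UMIs (grey square) and over 5 steps of raw Cdkn1a UMIs in irradiated cells (red), with 95% counting intervals. The p53 targets Phlda3, Bax, Rps27l and Mdm2 are higher over the first steps, Fos, Nfkbia, Ccl2 and Ccl12 mainly at 20 or more (Fos 4151 CPM against 1342 CPM at 10 to 19), Cx3cr1 stays near its sham level and Cst3 is lower at each step.

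Sham cells offer the same split at low Cdkn1a counts in a separate library. Of 1377 sham cells at 1 week, 145 had 1 or more Cdkn1a UMIs (median 1) and were set against the 1232 without. Of 21 measured p53 targets 2 were higher and none lower, against 2.39% higher and 1.81% lower of 5904 genes, and Bax had 176 CPM in sham cells with Cdkn1a and 133 CPM in those without (0.41, -0.05 to 0.84). Phlda3 had 4 UMIs in the 145 cells and none in the 1232. Immediate early genes were higher in 10 of 29 and inflammatory genes in 7 of 28, with 1 of the inflammatory genes lower. Ccl12 had 942 CPM in sham cells with Cdkn1a and 208 CPM in those without (2.18), and Fos 2296 and 1345 CPM (0.77). The median log2 fold was 0.31 over the p53 targets, 0.33 over the immediate early genes and 0.28 over the inflammatory genes, against -0.01 over all measured genes. Sham cells with Cdkn1a were also deeper, with a median of 4077 raw UMIs against 3738.5.

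The same split was made in the sham library of 6 h. Of 2541 filtered sham cells at 6 h, 243 held 1 or more Cdkn1a UMIs (median 1) and 2298 held none. Interferon response genes were higher in cells with Cdkn1a in 22 of 38 measured genes, inflammatory genes in 13 of 32 and G2/M genes in 7 of 14, against 3.44% of 7613 genes. The p53 targets were higher in 4 of 28 and lower in 1, against 1.94% of all genes lower. Ccl2 had 317 CPM in sham cells with Cdkn1a and 42.4 CPM in those without (log2 fold 2.90), and Ccl4 had 1352 CPM and 223 CPM (2.60). In these unirradiated cells 5.76% of those with Cdkn1a had 10 or more S or G2/M UMIs (3.19 to 9.48%), against 0.740% of those without (0.432 to 1.18%). The cells with Cdkn1a were deeper, with a median of 3969 raw UMIs against 3535.5, and the part of depth in drawing such cells was not tested.

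At 6 h after irradiation almost every cell held Cdkn1a: 911 of 1840 filtered cells (49.5%) were Cdkn1a-rich and 26 (1.41%) Cdkn1a-lacking. The 26 cells had a median of 7 UMIs of p53 targets other than Btg2, against 12 in the 911 Cdkn1a-rich cells, and 73.1% of them (52.2 to 88.4%) exceeded the limit of 5 UMIs that 10.6% of Cdkn1a-lacking cells exceeded at 1 week. Of 33 measured targets 5 were higher in Cdkn1a-rich cells and none lower, against 1.69% higher and 2.63% lower of 4858 genes. Phlda3 had 439 CPM in Cdkn1a-rich and 115 CPM in Cdkn1a-lacking cells at 6 h (1.93, 0.80 to 3.38). The 26 cells had a median of 5 Tmem119 UMIs against 10 in the Cdkn1a-rich cells, and their small number limits every value at 6 h.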

How the data were processed

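Droplet single-cell RNA libraries of mouse microglia (10x Genomics Chromium) were analysed, 1 library for each of 4 groups, each pooled from 4 mice per the labels. The deposited files hold unnormalised UMI counts for every gene in every barcode. Per the submitters' processing notes, Cell Ranger 2.0 and build mm10 were used; which annotation and which cell-calling rule is not given in the sources used here. GENCODE vM21 held 27645 of the 27998 gene identifiers. The filters and the Cdkn1a classes are those given above, and no doublet caller was run.

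Each cell was thinned without replacement to 2000 UMIs (seed 11), and UMIs were summed by class. Thinning equalises depth and discards part of the counts. A gene was measured from 50 thinned UMIs over both classes and called from 1.5-fold with a 95% interval apart from 0. Folds carry exact conditional binomial intervals, shares Clopper-Pearson intervals and levels exact Poisson intervals, all of which cover counting error only. Bounds against a class at 0 use 3 counts instead. Cells of a pool are not replicates, so no p-value is given.

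The members and the 19 gene lists (642 symbols, of which 2 matched no row) were chosen with earlier results of these data known. Genes named were all called members of the p53, S, G2/M, G1 and homeostatic lists, up to 4 of other lists, the 12 highest and 12 lowest genes outside the lists, and a fixed few such as Trp53, Gdf15 and Mki67. Alternatives were no thinning, another seed, pairs matched on total UMIs, classes from thinned Cdkn1a, limits of 5 and 20 Cdkn1a UMIs, no Tmem119 condition, other UMI, mitochondrial and gene minimum limits, cycling cells left out and a shorter p53 list. Intervals and calls were checked on simulated class sums with known folds. Those sums held no spread between cells, so the check does not cover genes that cells hold unevenly. Pairing and the steps of Cdkn1a were not simulated. Promoter windows are from RefSeq GRCm38.p6. Python 3.11.15, numpy 2.4.6, scipy 1.17.1 and pandas 2.3.3 were used.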

Additional observations from a re-analysis of the deposited data

Results flagged for a closer look

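For 3 genes the difference between Cdkn1a-rich and Cdkn1a-lacking cells ran in opposite directions at 6 h and at 1 week, each with an interval apart from 0, and the difference between the times was not tested. Ccl4, a chemokine, had a log2 fold of rich over lacking of -0.99 at 6 h (2259 CPM in 911 Cdkn1a-rich and 4500 CPM in 26 Cdkn1a-lacking cells) and of 0.98 at 1 week. Ccl3 had -0.67 at 6 h (1297 CPM in Cdkn1a-rich and 2058 CPM in Cdkn1a-lacking cells) and 1.55 at 1 week. Gas6 had -0.73 at 6 h (289.96 and 481 CPM in the same order) and 0.59 at 1 week, and without thinning its value at 6 h was -0.40 with an interval that spanned 0 (-0.87 to 0.12). The Ccl4 value at 6 h rests on few cells, since a single Cdkn1a-lacking cell held 74 of the 234 Ccl4 UMIs of its class.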

How the results depend on the processing

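No paired analysis was possible because each group is 1 library. The median of the p53 list stayed between 0.91 and 1.38 (log2) in all settings run, that of the S phase list between -0.74 and -0.27 and that of the homeostatic list between -0.19 and -0.02. Of 1252 values of single named genes under the alternatives, 1103 stayed within the interval of the reported value (which does not mean that a call held), 138 moved and 11 reversed. Without thinning, 199 genes were higher and 110 lower, the G2/M median was 1.21, 90.02% of Cdkn1a-rich and 91.2% of Cdkn1a-lacking cells had 2 or more S or G2/M UMIs (68.2% and 74.1% when thinned, so that this limit does not mark dividing cells), and the medians of p53 target UMIs per cell were 12 and 5. Pairs matched on total UMIs gave 69 genes higher and 36 lower, with fewer cells. With Cdkn1a-rich cells from 20 UMIs, the homeostatic median was -0.19 and 71.8% of them had 2 or more S or G2/M UMIs. A minimum of 20 UMIs gave 135 genes lower, and one of 200 UMIs gave 36 higher and 4 lower. Leaving out cells with 2 or more S or G2/M UMIs left 204 Cdkn1a-rich and 44 Cdkn1a-lacking cells, with 56 genes higher and 32 lower, and reversed Def6 (-0.62) and Gm26522 (-0.40). Of the 14 p53 calls, 4 held in that setting. Mif4gd reversed (0.24) without cells over 8000 UMIs, a setting that also drew UMIs of the remaining cells anew. Of the alternatives chosen after seeing the data, Cdkn1a-rich cells of 10 to 19 UMIs reversed Atf3 (-0.0069), and pairs matched on immediate early UMIs gave 57 genes higher and 39 lower and reversed Ccl4 (-0.046), Dusp1 (-0.12), Egr1 (-0.16), Nfkbia (-0.025), Socs3 (-0.38), Tnf (-0.093) and Zfp36 (-0.055). The S phase sum was -0.42 without the Tmem119 condition, which left 642 Cdkn1a-rich and 171 Cdkn1a-lacking cells. Changing the set of cells also drew UMIs anew, and the part of the draw in the -0.42 was not tested. All other alternatives for the S phase sum lay within the interval of the reported value. The G2/M sum, 0.09 as reported, was 0.52 without thinning, 0.43 with Cdkn1a-rich cells from 20 UMIs, -0.080 with classes from thinned Cdkn1a, -0.24 in pairs matched on total UMIs, -0.34 in pairs matched on immediate early UMIs and -0.26 without cells of 10 or more S or G2/M UMIs, so its direction is not settled. With another random draw of the UMIs the calls of all 14 p53 targets held, and those of Mcm3, Rfc2, Gas6, Ramp1, Xaf1, Zfp36 and Socs3 did not. Without thinning those of Gas6, Xaf1, Il1a and Diablo did not. The causes were not tested, except that fewer genes or cells entered where minimum limits or pairs were used. Depth limits the Cdkn1a-lacking class most, at 340000 thinned UMIs in all.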
